A study of Mus musculus with 21 samples.

Results

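The 114 genes described here were higher at 2 h with quisinostat (JNJ), an inhibitor of histone deacetylases (HDACs), than with its solvent, and were near the solvent's level at 24 h. The cells were SMB21, a cell line from a mouse medulloblastoma of the sonic hedgehog (SHH) class. They are 114 of the 24047 genes of the deposited count table, and 4 of them carry placeholder symbols. They were chosen by measured values, in CPM (each count scaled by its library's total). A gene was taken if its mean in JNJ 2 h was at least 5 CPM and at least 2 times the mean of DMSO 2 h, if its lowest JNJ 2 h library lay above its highest DMSO 2 h library, and if its mean in JNJ 24 h was 0.75 to 1.3 times (upper edge given to 2 digits) the mean of DMSO 24 h. Levels at 2 h and 24 h therefore describe the choice, and no test is read from them. The shRNA libraries were not used in the choice.

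Cells received JNJ or the solvent DMSO for 2 h or 24 h, in 4 groups: JNJ 2 h, DMSO 2 h, JNJ 24 h and DMSO 24 h. The other 3 groups were infected with virus carrying a short hairpin RNA (shRNA) against Hdac1 (shHdac1), Hdac2 (shHdac2) or luciferase (shLuc) and were then selected with puromycin. All groups are SMB21, a single line, grown in DMEM/F12 with B-27, so all 7 groups share its background, and the dose of JNJ is not given in the labels. Each group has 3 libraries, 21 in all, with 23094799 to 39341784 counts per library. The labels do not say whether these came from separate cultures, so p-values measure the spread between libraries, which may be technical. In bulk RNA, fewer cells with a transcript and less transcript per cell cannot be told apart.

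Class I HDACs, among them HDAC1 and HDAC2, remove acetyl groups from histone tails within co-repressor complexes and keep many genes low. Inhibitors raise acetylation within a short time, and genes can respond at once or through later factors. Genes of stress responses and of the circadian clock are known for brief pulses of transcription, in part because their products shut off their own induction.

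Of the 10551 genes that passed the floor of 5 CPM in JNJ 2 h, 698 met both conditions at 2 h, of which 580 were above the 24 h window, 114 within it and 4 below it. The members had a median ratio of 2.27 at 2 h (range 2.00 to 4.08), against 2.71 for the 580 genes that stayed above the window. Only 15 members reached a ratio of 3, and 72 were under 2.5. At 24 h the members' median ratio was 1.15 (0.780 to 1.3298), beside 1.05 over all genes past the floor. With TMM scaling, their median log2 change at 24 h was 0.05, beside 0.01 over all genes tested. In edgeR's quasi-likelihood fit 103 of the 114 members were called higher at 2 h (adjusted p under 0.05), where 9.11% of all tested genes were, and none was called lower, where 4.59% were. At 24 h none was called higher (18.1% of all tested genes) and Gltpd1 alone was called lower (15.1%). With the replicate number as a block in the 24 h libraries, whose numbers pair, 2 members were called higher at 24 h (Pigm and Tbc1d2b), where 32.4% of all genes were. Under that block 8 were lower (Cdan1, Cep152, Cramp1l, Gltpd1, Pag1, Tet2, Tmem121 and Zdhhc18), where 31.1% were. These counts follow from the choice and are given as description.

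**Figure D1:**
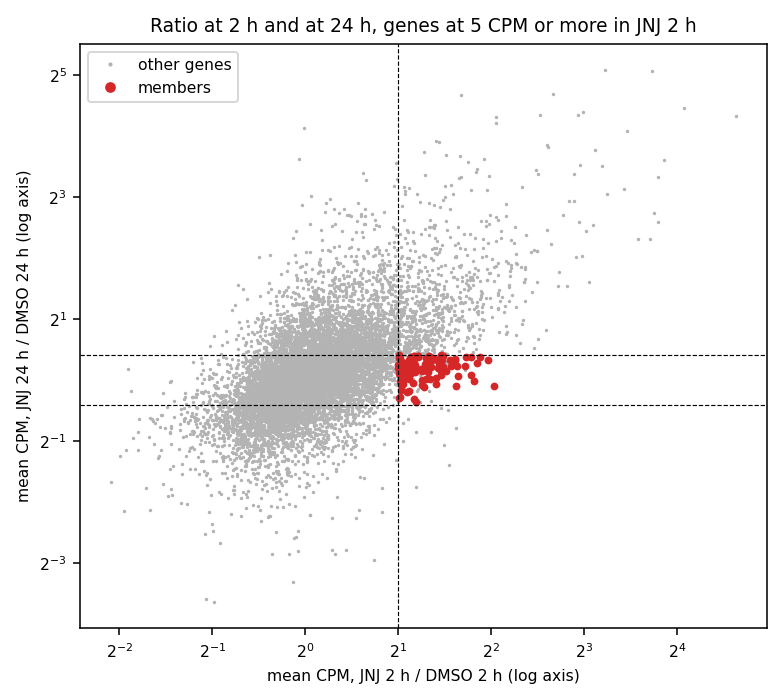
Each point is 1 gene with at least 5 CPM in JNJ 2 h. The x axis is the ratio of mean CPM at 2 h and the y axis that at 24 h, JNJ over DMSO, both on log axes, and dashed lines mark 2 at 2 h and the 2 edges of the window at 24 h. The 114 members (red) fill the strip right of 2 and between the horizontal lines, and the 580 genes above the strip reach higher ratios at 2 h.

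Within the JNJ libraries nearly all members were lower at 24 h than at 2 h. Mean JNJ 24 h was below mean JNJ 2 h for 111 of 114, by a median ratio of 0.553, and every JNJ 24 h library lay below every JNJ 2 h library for 70, as for 14.5% of genes past the floor. The vehicle also moved. DMSO 24 h over DMSO 2 h had a median of 1.15 in the members, against 1.05 over genes past the floor. This ratio reached at least the upper edge of the 24 h window in 36 members, and the share over genes past the floor was not counted. In 51 members every JNJ 24 h library was still above every DMSO 2 h library (34.1% of genes past the floor). JNJ 24 h and DMSO 24 h libraries overlapped for 94 members. JNJ 24 h lay wholly above DMSO 24 h for 18 (31.8% of genes past the floor) and wholly below for Gltpd1 and Pag1 (24.0%). High JNJ 2 h and middling 24 h values were required by the rule, so nothing is read from these counts.

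**Figure D2:**
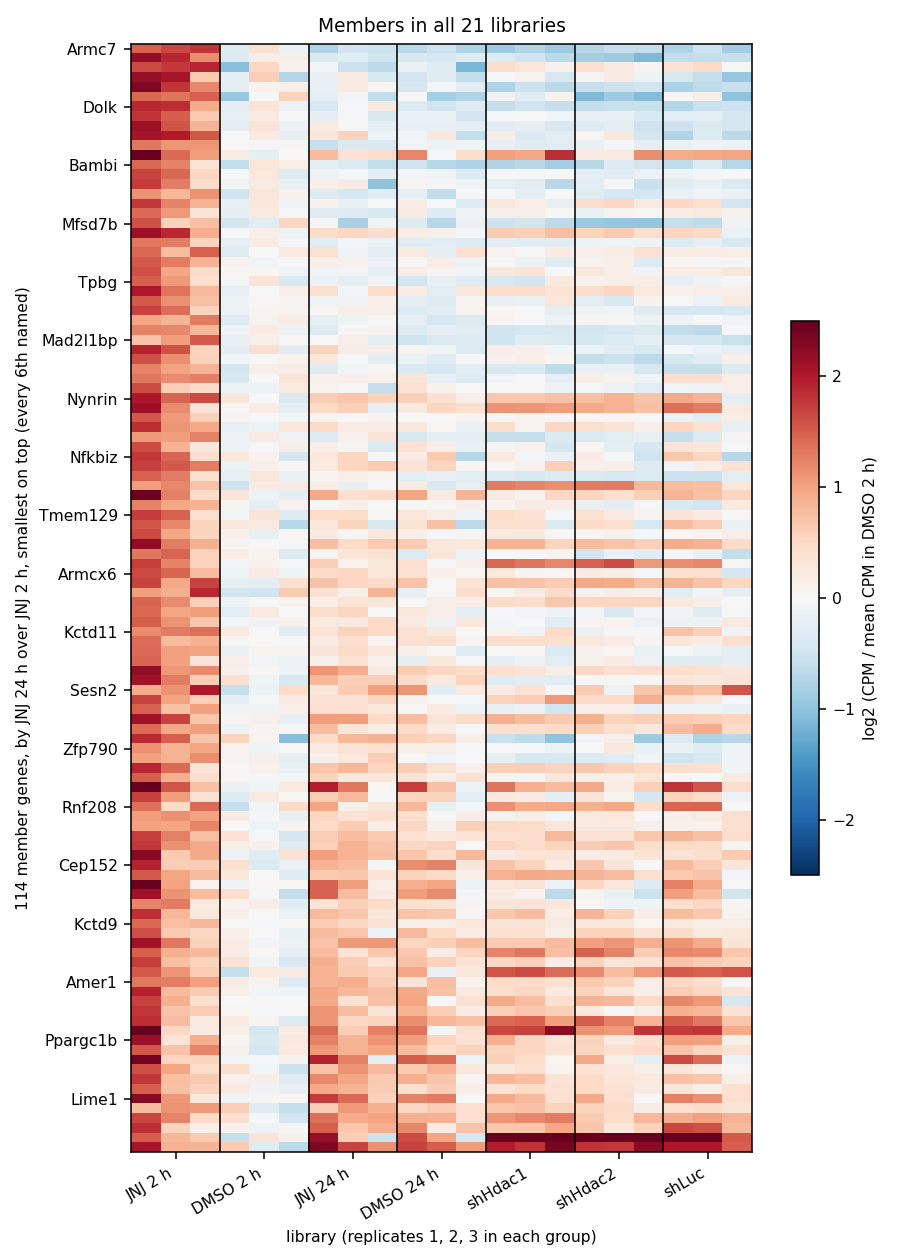
Rows are the 114 members, ordered by JNJ 24 h over JNJ 2 h with the smallest on top, and columns are the 21 libraries by group. Colour is log2 of CPM over the mean of DMSO 2 h, capped at 2.5 either way. Red fills the JNJ 2 h columns, most deeply in replicate 1, and of the lowest rows Dok7 is as red in JNJ 24 h and the shRNA libraries, while Vegfa is redder in the shRNA libraries and, in JNJ 24 h, runs from deep red in replicate 1 to pale blue in replicate 3.

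The 3 JNJ 2 h libraries differed. Replicate 1 was the highest for 95 of the 114 members (83.3%), and replicate 3 was the lowest for 82 (71.9%). Replicate 1 was the highest for 74.0% of the 580 genes that stayed above the window and for 38.4% of all genes past the floor. Over the mean of DMSO 2 h, the members' medians were 3.12, 2.15 and 1.67 in JNJ 2 h replicates 1, 2 and 3. On the first principal component of the 12 libraries the same replicates lay at -20, 8.7 and 33.9. Replicates 1, 2 and 3 of DMSO 2 h lay at 44.3, 46.8 and 63.2, and JNJ 24 h at -100.6 to -92.6. The part of these replicate differences in the members' ratios was not tested. Without JNJ 2 h replicate 1 the rule takes 59 genes, 50 of them members, and without JNJ 2 h replicate 3 it takes 318, 107 of them members. With each of the 12 libraries left out in turn, 25 members were taken every time, and 23 of these also under each of 3 other scalings.

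**Figure D3:**
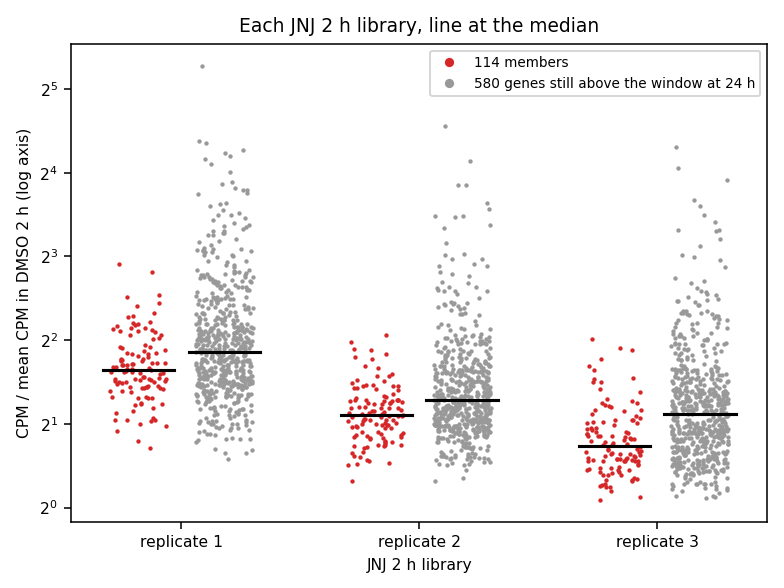
For each JNJ 2 h library, CPM over the mean CPM of DMSO 2 h is plotted on a log axis, 1 point per gene, with a line at the median. The members (red) have medians of 3.12, 2.15 and 1.67 in replicates 1, 2 and 3, and the 580 genes still above the window (grey) have 3.63, 2.43 and 2.18.

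The cells carried the markers of granule neuron progenitors, the origin of SHH tumours. Atoh1, a proneural factor, averaged 177 CPM in JNJ 2 h and 432 CPM in DMSO 2 h. Zic1 averaged 397 CPM and 585 CPM in these groups, Gli1 123 CPM and 122 CPM, and Ptch1 63.3 CPM and 57.4 CPM. Ptch1 also averaged 97.7 CPM in JNJ 24 h and 86.2 CPM in DMSO 24 h. Every other marker of this list averaged lower in JNJ 24 h than in DMSO 24 h, among them Gli1 (108.1 CPM and 167.7 CPM) and Atoh1 (252.7 CPM and 478.8 CPM). Of the 8 markers of this list, 3 were called lower at 2 h and none higher (4.59% and 9.11% of all genes were). At 24 h 4 were called lower and none higher (15.1% and 18.1%). The 8 markers of this list summed to 1072 to 1510 CPM in JNJ 2 h, against 2058 to 2578 CPM in DMSO 2 h, and to 1253 to 1671 CPM in JNJ 24 h, against 2556 to 2666 CPM in DMSO 24 h. In the 12 JNJ and DMSO libraries the 6 microglial markers summed to 3.35 CPM or less. The 6 endothelial markers summed to 13.98 CPM or less there, with Cldn5 at 0 in all 21 libraries. Fibroblast markers summed to 9.27 to 42.25 CPM and oligodendrocyte markers to 3.23 to 43.65 CPM in those 12. In the shRNA groups the oligodendrocyte markers summed to 24.5 to 223 CPM in shHdac1, 17.6 to 141.9 CPM in shHdac2 and 14.9 to 75.9 CPM in shLuc. Astrocyte markers summed to 516 to 861 CPM in JNJ 2 h and to 441 to 605 CPM in DMSO 2 h, nearly all from Slc1a3 and Slc1a2, with Aqp4 near 0. At 24 h they summed to 249 to 357 CPM in JNJ 24 h, against 615 to 744 CPM in DMSO 24 h, and all 4 of these markers tested were called lower (15.1% of all genes were). Their part in the members' values was not tested. No member is in a marker list.

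Among members of stress, NF-κB and clock control, Ciart had the lowest JNJ 24 h level relative to JNJ 2 h. Ciart encodes a repressor of the CLOCK and BMAL1 activator pair. It had 28.8, 31.3 and 34.1 CPM in JNJ 2 h, against 4.43, 13.2 and 9.84 CPM in DMSO 2 h, a ratio of 3.43. At 24 h it had 8.69, 6.34 and 5.84 CPM with JNJ and 8.099, 7.42 and 4.12 CPM with DMSO. The JNJ 2 h libraries were close together and stood clear of the other groups, while both 24 h groups overlapped and Ciart was taken by the rule under every library left out.

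Gadd45b, a growth arrest and DNA damage response gene, showed the same even JNJ 2 h level. It had 31.1, 28.9 and 32.4 CPM in JNJ 2 h, against 5.98, 11.4 and 17.03 CPM in DMSO 2 h. At 24 h it had 9.82, 11.01 and 7.46 CPM with JNJ and 11.4, 6.33 and 6.83 CPM with DMSO, and the groups overlapped. Ppp1r15a encodes GADD34, which guides a phosphatase to the translation factor eIF2α and so restores translation after stress. It had 65.9, 60 and 82.4 CPM in JNJ 2 h, against 26.9, 35.7 and 37.9 CPM in DMSO 2 h. At 24 h Ppp1r15a had 28.5, 30.5 and 33.1 CPM with JNJ, just above 28.1, 24.6 and 26.3 CPM with DMSO.

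Sesn2, a leucine sensor that restrains mTORC1 and a known p53 and ATF4 target, was less even. It had 51.8, 60 and 110.2 CPM in JNJ 2 h, against 18.3, 25.2 and 38.7 CPM in DMSO 2 h, with replicate 3 the highest in both groups. At 24 h Sesn2 had 33.5, 42.8 and 55.6 CPM with JNJ and 58.6, 22.6 and 31.8 CPM with DMSO, fully overlapping. Nfkbiz, a nuclear IκB protein that modifies NF-κB target choice, had 15.3, 12.3 and 6.01 CPM in JNJ 2 h and 5.33, 4.72 and 3.35 CPM in DMSO 2 h. Its JNJ 2 h replicate 3 stood only just above the highest DMSO 2 h library. The NF-κB subunit gene Rel had a ratio of 2.54 at a mean of 5.72 CPM in JNJ 2 h, the lowest of any member. Rnf31, the catalytic subunit of the linear ubiquitin ligase that feeds NF-κB, had a ratio of 2.52. Of 9 other genes tested of an NF-κB list, 2 were called higher at 2 h (Nfkbie and Nfkb2; 9.11% of all genes were). Another 2 were called lower (Nfkbia and Tnip1, with ratios of 0.397 and 0.460; 4.59%).

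Promoter sequences are shown for a selection of members: Armc7, Slc19a2, Ciart and Gadd45b, 4 of the 6 with the lowest JNJ 24 h over JNJ 2 h, and the stress gene Ppp1r15a. The windows run from 250 bases before to 50 after the RefSeq start (GRCm38.p6) and read 5′ to 3′ on the gene's strand. Capitals mark CACGTG (E-box), TGACGTCA (CRE), TATAAA (of core promoters) and CCAAT (the site of the factor NF-Y), with ATTGG its reverse complement, each searched on both strands. Of the 10 motifs searched only these are marked. They lie at chr3:95882179-95882478 (- strand) for Ciart, chr10:80929841-80930140 (+ strand) for Gadd45b, chr7:45526219-45526518 (- strand) for Ppp1r15a, chr1:164248796-164249095 (+ strand) for Slc19a2 and chr11:115475417-115475716 (+ strand) for Armc7.
Ciart: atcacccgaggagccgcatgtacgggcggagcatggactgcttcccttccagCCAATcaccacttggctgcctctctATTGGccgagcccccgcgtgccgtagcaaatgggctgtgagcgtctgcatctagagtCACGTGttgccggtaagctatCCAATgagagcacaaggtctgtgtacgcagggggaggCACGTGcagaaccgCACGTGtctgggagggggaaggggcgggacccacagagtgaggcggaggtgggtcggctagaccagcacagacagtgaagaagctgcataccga
Gadd45b: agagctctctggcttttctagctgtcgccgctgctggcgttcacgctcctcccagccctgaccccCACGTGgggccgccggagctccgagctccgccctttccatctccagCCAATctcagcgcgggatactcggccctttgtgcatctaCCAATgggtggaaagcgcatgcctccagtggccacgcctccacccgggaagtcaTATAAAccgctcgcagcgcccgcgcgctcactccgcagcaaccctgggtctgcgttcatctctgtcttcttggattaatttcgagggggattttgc
Ppp1r15a: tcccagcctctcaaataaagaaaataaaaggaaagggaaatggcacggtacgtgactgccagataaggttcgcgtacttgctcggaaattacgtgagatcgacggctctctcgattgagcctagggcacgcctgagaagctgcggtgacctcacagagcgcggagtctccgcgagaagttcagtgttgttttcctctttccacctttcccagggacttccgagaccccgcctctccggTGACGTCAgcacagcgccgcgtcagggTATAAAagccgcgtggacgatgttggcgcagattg
Slc19a2: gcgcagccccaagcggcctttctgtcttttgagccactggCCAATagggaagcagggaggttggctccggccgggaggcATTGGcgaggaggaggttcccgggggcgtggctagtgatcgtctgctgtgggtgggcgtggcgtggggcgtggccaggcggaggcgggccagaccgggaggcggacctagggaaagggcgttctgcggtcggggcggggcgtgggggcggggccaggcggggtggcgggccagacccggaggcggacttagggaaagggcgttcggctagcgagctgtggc
Armc7: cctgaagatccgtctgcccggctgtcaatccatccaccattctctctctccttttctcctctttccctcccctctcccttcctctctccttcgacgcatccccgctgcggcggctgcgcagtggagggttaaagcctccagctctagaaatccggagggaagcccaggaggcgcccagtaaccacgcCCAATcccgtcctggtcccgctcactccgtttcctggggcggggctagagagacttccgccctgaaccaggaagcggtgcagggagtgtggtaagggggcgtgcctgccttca
In the Ciart window CACGTG stands 3 times, with first bases at -116, -58 and -44 from the start, beside 3 CCAAT boxes. Gadd45b has CACGTG at -185 and TATAAA at -46, and Ppp1r15a has the CRE at -12 and TATAAA at 16 bases past the start. Among genes past the floor with a RefSeq promoter (8534), 12.3% hold CACGTG, 3.86% the CRE, 7.73% TATAAA and 43.7% CCAAT. Itprip, another of the 6, held none of these letters, and Entpd7 held CCAAT boxes only, as did Armc7 and Slc19a2. A RefSeq promoter matched 91 of the 114 members (79.8%), under the 80% set for a comparison, so no share over the members is given. A match describes these letters and no more.

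Other genes of the same pathways were read from lists, beside the shares of all tested genes called higher and lower, 9.11% and 4.59% at 2 h and 18.1% and 15.1% at 24 h. The lists held no member among 30 immediate-early, 18 heat shock, 20 MAP kinase feedback and 22 clock genes of the count table. Of 21 clock genes tested, a list without Ciart, 8 were called higher at 2 h (Per1, Per2, Cry1, Cry2, Nr1d1, Dbp, Hlf and Nfil3) and 1 lower (Csnk1d). Per1, a clock repressor, averaged 131 ± 21.97 CPM in JNJ 2 h and 23.2 ± 2.22 CPM in DMSO 2 h, then 30.3 ± 4.68 CPM in JNJ 24 h and 18.95 ± 4.10 CPM in DMSO 24 h (SD, n = 3 each). Per2 was close to a member, with a ratio of 2.74 at 2 h and 0.725 at 24 h, just under the window. Cry2 had ratios of 3.58 and 1.43, just over it. At 24 h 5 of these clock genes were called higher and 2 lower, among them Nr1d1 and Hlf higher.

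Of 15 other genes of the ATF4 and unfolded protein list, 3 were called higher at 2 h and none lower. Xbp1, a factor of the unfolded protein response, averaged 134 ± 47.8 CPM in JNJ 2 h and 62.0 ± 19.6 CPM in DMSO 2 h. Dnajb9, an endoplasmic reticulum chaperone, averaged 75.1 ± 11.3 CPM and 38.1 ± 9.68 CPM in these groups, and Sel1l, a subunit of the degradation complex there, 184.6 ± 85.0 CPM and 89.4 ± 11.6 CPM (SD, n = 3 each). At 24 h 1 of the 15 was called higher and 5 lower, among them Atf4 itself, with a ratio of 0.413.

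The 9 transporter genes among the members included 8 of the Slc family, which made up 7.02% of members and 1.72% of genes past the floor. Slc genes, such as Slc45a3 and Slc25a29, were also among the genes that stayed above the window at 24 h. The Slc share of those genes was not counted, so the higher share is not read as particular to the members. Slc19a2, a thiamine transporter, had 185, 150.0 and 90.4 CPM in JNJ 2 h, against 31.97, 44.4 and 44.6 CPM in DMSO 2 h, a ratio of 3.52. At 24 h Slc19a2 had 31.4, 33.1 and 28.7 CPM with JNJ and 31.5, 29.6 and 32.9 CPM with DMSO, and the groups overlapped. Slc16a1, the monocarboxylate carrier MCT1, had 428, 349 and 194 CPM in JNJ 2 h, against 118, 138 and 139 CPM in DMSO 2 h. Replicate 3 was the JNJ 2 h library nearest to DMSO 2 h.

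Slc1a1, a neuronal glutamate transporter, rested on 1 library. It had 126, 31.3 and 25.2 CPM in JNJ 2 h, against 24.3, 16.2 and 24.99 CPM in DMSO 2 h, so its ratio of 2.79 came from replicate 1, and without that library it was not taken. Slc39a9, a zinc transporter, was even, with 270.4, 263 and 203 CPM in JNJ 2 h and 108, 131 and 105 CPM in DMSO 2 h. The zinc transporter Slc39a14, the glucose transporter Slc2a3, the cationic amino acid transporter Slc7a2, the heme exporter Mfsd7b and Slc35e1 had ratios of 2.26, 2.38, 2.97, 2.06 and 2.21 at 2 h.

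The largest role group, with 22 members, was of glycosylation, lipid anchors and the secretory pathway, with 2 h ratios of 2.01 to 3.60. Dolk, the kinase that makes the dolichyl phosphate needed for N-glycosylation, had 95.4, 92.8 and 49.6 CPM in JNJ 2 h, against 22.2, 32.6 and 23.2 CPM in DMSO 2 h. At 24 h Dolk had 19.9, 25.03 and 30.2 CPM with JNJ and 20.4, 18.4 and 20.9 CPM with DMSO, and the groups overlapped. Entpd7, a nucleotide hydrolase of inner membranes, had 55.2, 38.05 and 25.2 CPM in JNJ 2 h, against 9.24, 11.7 and 12 CPM in DMSO 2 h, a ratio of 3.6. Its libraries at 24 h, 9.52, 13.04 and 11.4 CPM with JNJ and 8.34, 10.5 and 9.06 CPM with DMSO, overlapped.

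Itprip, a partner of the inositol trisphosphate receptor, had 88.6, 81.3 and 30.8 CPM in JNJ 2 h, against 16.6, 30 and 11.8 CPM in DMSO 2 h. Its lowest JNJ library barely passed its highest DMSO library. Pigm adds the first mannose to the GPI anchor and had 369, 294 and 144 CPM in JNJ 2 h, against 83.99, 128 and 80.4 CPM in DMSO 2 h. M6pr, the receptor that sorts lysosomal enzymes, had 424, 363 and 197 CPM in JNJ 2 h, against 131, 186 and 134 CPM in DMSO 2 h. In both genes JNJ 2 h replicate 3 lay close above the highest DMSO 2 h library.

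The other members of the group with most counts, not corrected for length, were Fam134c, an endoplasmic reticulum autophagy receptor of the reticulon-like family, and Pdzd8, a tether of that organelle. Fam134c had 345, 338 and 204 CPM in JNJ 2 h, against 119, 161 and 136 CPM in DMSO 2 h. Pdzd8 had 364, 260.0 and 189 CPM in JNJ 2 h, against 132, 123 and 119.5 CPM in DMSO 2 h. Tmem41b, a lipid scramblase of the same membrane, had 132, 87.6 and 52.8 CPM in JNJ 2 h, against 24.7, 36.7 and 26.7 CPM in DMSO 2 h, and was taken under every library left out. Gltpd1, a ceramide phosphate transfer protein, had a ratio of 2.25 at 2 h and one of 0.803 at 24 h, with 17.1, 19.9 and 19.6 CPM in JNJ 24 h, all below 24.2, 22.9 and 23.3 CPM in DMSO 24 h. Hyal1, a lysosomal hyaluronidase, hardly came down, with 41.5, 31.1 and 18.4 CPM in JNJ 2 h and 34.2, 24.9 and 26.5 CPM in JNJ 24 h, while DMSO 24 h was 1.66 times DMSO 2 h.

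Of the 18 members that are receptors, ligands or signalling proteins, Apcdd1 had the largest 2 h ratio of all members. Apcdd1, a membrane antagonist of Wnt signalling, had 119, 42.2 and 32.8 CPM in JNJ 2 h, against 18.1, 13.5 and 15.9 CPM in DMSO 2 h, a ratio of 4.08. Replicate 1 was far above the other 2 JNJ 2 h libraries, and the rule took Apcdd1 without it. At 24 h Apcdd1 had 27.4, 20.4 and 21.5 CPM with JNJ and 37.1, 15.5 and 21.4 CPM with DMSO, which overlapped. Lifr, the receptor for leukaemia inhibitory factor, had 244, 108 and 61.8 CPM in JNJ 2 h, against 55.1, 41.1 and 37.95 CPM in DMSO 2 h, with replicate 1 far above the others. Lifr was not taken without JNJ 2 h replicate 1.

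Members of the TGF-β and BMP pathway were the type I receptor genes Acvr1 and Acvr1b and the pseudoreceptor gene Bambi. Acvr1 had 141, 118 and 63.2 CPM in JNJ 2 h, against 43.6, 52.4 and 35.7 CPM in DMSO 2 h, with a 24 h ratio of 1.01. Bambi, an antagonist of these receptors, had 32.2, 28.1 and 15.2 CPM in JNJ 2 h, against 7.78, 14.8 and 13.3 CPM in DMSO 2 h, and the groups nearly met. Of 16 other genes of the TGF-β and BMP list, 3 were called higher at 2 h (Smad7, Skil and Nog) and 1 lower (Id2).

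Ephb4, a receptor for ephrin-B2, had 119.9, 132 and 72 CPM in JNJ 2 h, against 54.9, 51.4 and 38.1 CPM in DMSO 2 h. Of 20 other ephrin and Eph genes, 10 were called higher at 2 h (9.11% of all genes were) and none lower (4.59%). At 24 h 9 of the 20 were higher (18.1%) and none lower (15.1%). Ephb4 had a ratio of 1.22 at 24 h, beside 3.32 for Ephb3, which was among those called. Syngr3, a synaptic vesicle protein, had 66.2, 55.01 and 28.1 CPM in JNJ 2 h, against 14.99, 16.3 and 13.7 CPM in DMSO 2 h. Its 24 h ratio was 1.29, near the upper edge of the window.

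Vegfa and Dok7 had a JNJ 24 h mean above their JNJ 2 h mean. Vegfa, the main angiogenic growth factor, had 157, 97.7 and 86.3 CPM in JNJ 2 h and 36.9, 68.4 and 59.4 CPM in DMSO 2 h. At 24 h Vegfa had 252, 84.8 and 37.7 CPM with JNJ and 171, 109 and 41.3 CPM with DMSO, with replicate 1 the highest and replicate 3 the lowest in both groups. Its JNJ 24 h mean rested on replicate 1, and the other 2 libraries were below every JNJ 2 h library. In the shRNA groups Vegfa had 510.5, 493 and 444 CPM in shHdac1, 518, 348 and 402 CPM in shHdac2 and 476, 432 and 158 CPM in shLuc, and all but shLuc replicate 3 lay far above JNJ 2 h. Dok7, an activator of the muscle kinase MuSK, had 14.5, 6.36 and 6.28 CPM in JNJ 2 h, 5.45, 2.81 and 2.19 CPM in DMSO 2 h, 17.5, 11.2 and 7.67 CPM in JNJ 24 h and 11.2, 9.98 and 7.29 CPM in DMSO 24 h. Its DMSO level at 24 h was 2.73 times that at 2 h, so its 24 h ratio of 1.28 does not describe a return to the DMSO 2 h level. The third such member, 9330182L06Rik, has a placeholder symbol. Lime1, an adaptor of lymphocyte kinases, Lmbrd2 and Pikfyve, a lipid kinase of endosomes, had JNJ 24 h levels of 0.916, 0.918 and 0.884 times their JNJ 2 h levels.

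**Figure D4:**
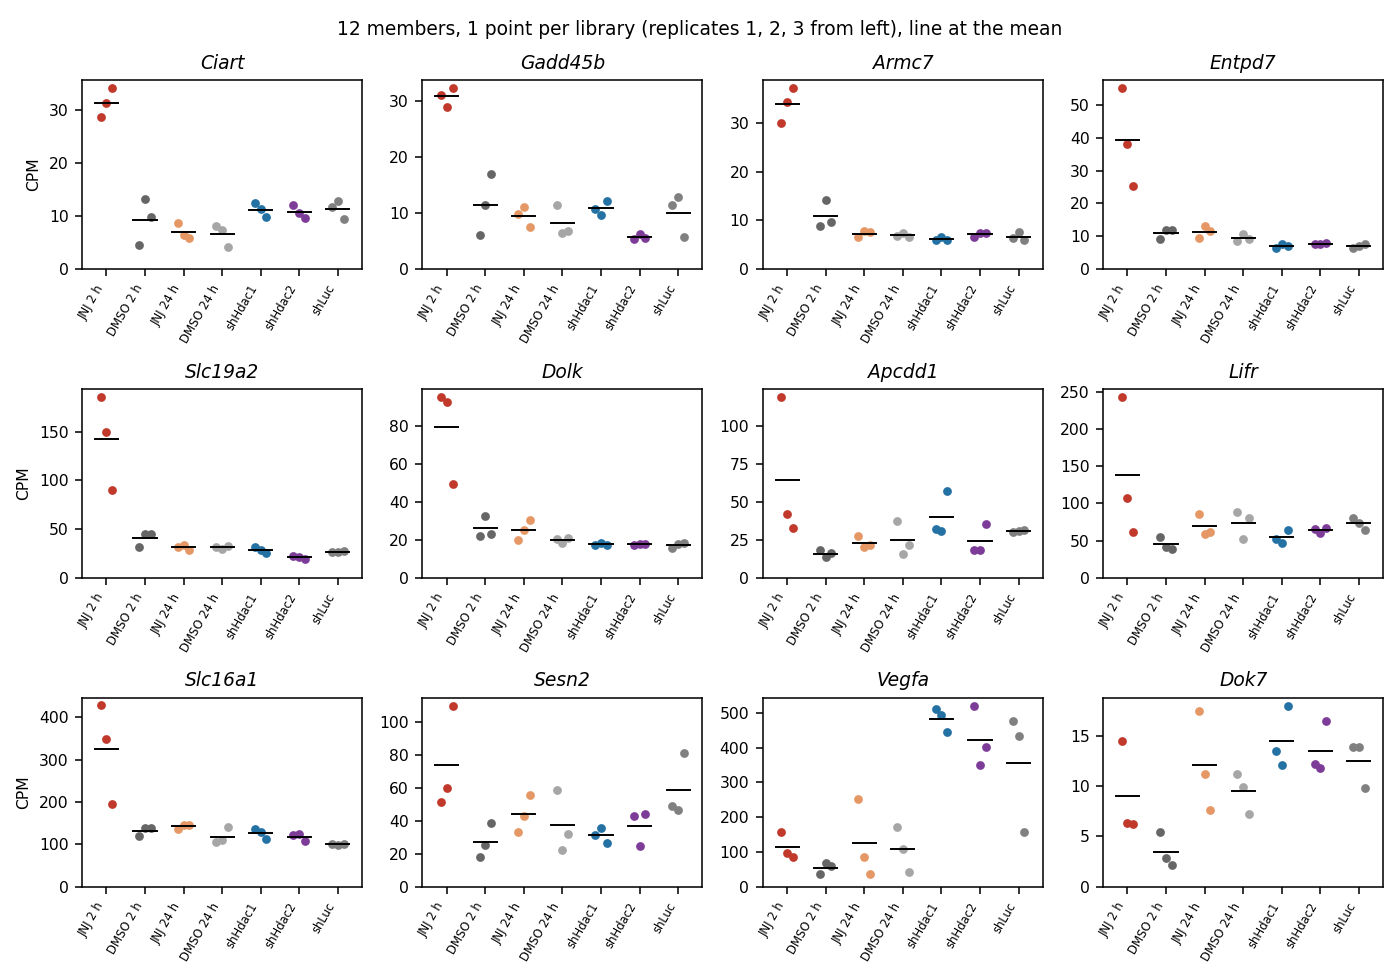
CPM of 12 members in all 21 libraries, with replicates 1, 2 and 3 from left to right in each group, and a line at the mean. Axes are linear and start at 0. Ciart, Gadd45b and Armc7 have 3 JNJ 2 h points close together, Apcdd1 and Lifr have 1 high point, and Vegfa and Dok7 are highest outside JNJ 2 h.

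Armc7, of armadillo repeats, had the lowest JNJ 24 h level relative to JNJ 2 h of all members. It had 30.2, 34.5 and 37.3 CPM in JNJ 2 h, against 8.87, 14.1 and 9.68 CPM in DMSO 2 h, then 6.46, 7.86 and 7.502 CPM in JNJ 24 h, against 6.799, 7.47 and 6.497 CPM in DMSO 24 h. The 2 h groups stood far apart and the 24 h groups overlapped at a level below DMSO 2 h. Plekhh3 had the most even JNJ 2 h libraries, at 171, 157 and 164 CPM, against 52.3, 68.1 and 85.7 CPM in DMSO 2 h. The highest JNJ 2 h library was under 1.5 times the lowest in 25 members and at least 3 times it in 13, of which Dmpk had the widest range (5.38 times).

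Nynrin had 134, 91.2 and 104 CPM in JNJ 2 h, against 40.8, 33.3 and 25.8 CPM in DMSO 2 h, and its groups stood far apart. Ccdc142 was low and uneven, with 14.98, 6.36 and 3.62 CPM in JNJ 2 h, against 1.91, 1.99 and 2.52 CPM in DMSO 2 h. Tmem43, an inner nuclear membrane protein, had 362, 294 and 164 CPM in JNJ 2 h, against 89.2, 120.5 and 100.5 CPM in DMSO 2 h, and a 24 h ratio of 1.03. With Tmem41b, Tmem121, Tmem129 and Tmem194 it made 5 Tmem members (4.39% of members, 1.403% of genes past the floor), a stem that names membrane proteins of unlike function. Tmem genes, such as Tmem50b and Tmem86a, were also among the genes that stayed above the window at 24 h. The Tmem share of those genes was not counted either.

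The 13 members of transcription and chromatin had 2 h ratios of 2.00 to 3.67. Zfp819, a zinc finger gene, had 7.33, 6.92 and 5.13 CPM in JNJ 2 h, against 1.74, 2.04 and 1.5 CPM in DMSO 2 h, the largest ratio of the group. Zfp790 and Zfp948 are the other Zfp members (2.63% of members, 2.49% of genes past the floor), and counts of such genes are uncertain where reads fit several zinc finger genes. Mybl1, which encodes the factor A-Myb, had 94.5, 43.5 and 46.01 CPM in JNJ 2 h, against 21.98, 20.7 and 18.6 CPM in DMSO 2 h. Mlxip encodes MondoA, a sensor of glucose phosphate that pairs with Mlx, and had 176, 103 and 126 CPM in JNJ 2 h, against 58.3, 58.4 and 69.7 CPM in DMSO 2 h. Of 11 other genes of the Myc and Mad network, Mxd1 and Mlx were called higher at 2 h and Myc lower.

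Tet2 and Dnmt3b act in opposite directions on DNA methylation, and both were members. Tet2, which oxidises methylcytosine, had 78.5, 37.7 and 26.1 CPM in JNJ 2 h, against 25.4, 23.2 and 17.4 CPM in DMSO 2 h. Dnmt3b, a de novo methyltransferase, had 31.1, 10.2 and 12.5 CPM in JNJ 2 h, against 5.84, 5.18 and 8.26 CPM in DMSO 2 h. In both genes replicate 1 made most of the difference, and neither was taken without it. Asf1b, a histone chaperone, was even at 66.3, 65.7 and 76.8 CPM in JNJ 2 h, against 33.3, 30.9 and 35.1 CPM in DMSO 2 h.

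The product of Kctd11, an adaptor of a cullin ubiquitin ligase, is known to direct HDAC1 to degradation and to antagonise hedgehog signalling. Kctd11 had 9.93, 10.6 and 11.3 CPM in JNJ 2 h, against 5.14, 4.36 and 3.56 CPM in DMSO 2 h. At 24 h Kctd11 had 5.505, 6.45 and 6.18 CPM with JNJ and 5.67, 5.07 and 4.37 CPM with DMSO. The JNJ 2 h libraries were even, the 24 h groups overlapped, and Kctd11 was taken under every library left out. Hdac1 itself averaged 88.5 ± 10.99 CPM in JNJ 2 h and 89.4 ± 5.75 CPM in DMSO 2 h (SD, n = 3 each). At 24 h Hdac1 averaged 143.2 ± 20.46 CPM with JNJ and 94.03 ± 4.88 CPM with DMSO. These are RNA levels, and the HDAC1 protein was not measured in these data. The members held 3 Rnf genes, Rnf24, Rnf208 and Rnf31 (2.63% of members, 0.540% of genes past the floor), named for the ring finger of many ubiquitin ligases.

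Of 6 members of mitosis and DNA repair, Cenpl, a centromere protein, had 74.6, 47.1 and 77.8 CPM in JNJ 2 h, against 22.4, 27.5 and 32.6 CPM in DMSO 2 h. Cep152, needed for centriole duplication, had the lowest 24 h ratio of all members (0.780), with 28.3, 26.99 and 14.96 CPM in JNJ 24 h and 34.6, 36.6 and 18.9 CPM in DMSO 24 h. Its DMSO 24 h mean was 1.94 times that of DMSO 2 h. The others, Mad2l1bp, Ercc2, Xrcc3 and Tubgcp6, had 2 h ratios of 2.15 to 2.20.

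The members at the edges of the rule had close neighbours outside it. At the fold of 2, Zfp790 (2.00) and Acvr1b (2.00) were inside, and Abhd6 and Kdelr2 (1.999 each) outside. At the lower edge of the window, Cep152 (0.780) and Gltpd1 (0.803) were inside, and Usp51 (0.710) and Per2 (0.725) outside. At the upper edge, Pikfyve (1.326) and Pigm (1.3298) were inside, and Klhl28 (1.34) and Sft2d1 (1.35) outside. At the floor of 5 CPM, Rel and Tram2 (5.72 CPM each) were inside, and Nfkbid (4.66 CPM) and Zfp473 (4.88 CPM) outside.

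In gene structure, which the rule did not use, the members had a median of 8 exons and a median span of 20.7 kb (GENCODE M21). The 580 genes that stayed above the window had 8 exons and 21.7 kb, and all genes past the floor 9 exons and 25.8 kb. Spans over 100 kb were found for 6.14% of the members, 4.69% of the 580 genes and 14.2% of genes past the floor. Genes of at most 2 exons, such as the single-exon genes Dolk, Pigm and Kctd11, made up 10.5%, 12.9% and 6.58% of these sets.

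In the knockdown libraries the targets were low. Hdac1 averaged 30.3 ± 2.09 CPM in shHdac1 and 95.01 ± 3.17 CPM in shLuc (SD, n = 3 each; log2 -1.63, edgeR adjusted p = 0.000165). Hdac2 averaged 50.5 ± 2.44 CPM in shHdac2 and 319 ± 11.2 CPM in shLuc (log2 -2.66, edgeR adjusted p = 3.49e-06). The comparison addresses the members' levels where the RNA of either gene alone was lowered but not absent, and all 114 were tested. The proteins were not measured in these data, so a lack of calls does not describe loss of either enzyme.

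No member was called in either knockdown against shLuc by edgeR's quasi-likelihood test. For shHdac1 these were 0 of 114 higher and 0 lower, where 0.154% and 0.595% of all tested genes were called. For shHdac2 these were 0 higher and 0 lower, where 0.654% and 1.03% were called. At an unadjusted p under 0.05, 11 members (9.65%) were higher and 5 (4.39%) lower in shHdac1, where 5.00% and 7.39% of all genes were. In shHdac2 8 (7.02%) were higher and 13 (11.4%) lower, where 7.68% and 8.18% were. DESeq2 called 4 members higher (3.51%) and 3 lower (2.63%) in shHdac1, where it called 1.24% and 2.82% of all genes. In shHdac2 it called 4 higher (3.51%) and 5 lower (4.39%), where 2.82% and 3.26% were called. The members' median log2 change was 0.04 in shHdac1, beside 0.00 over all genes, and -0.01 in shHdac2, beside -0.01. The members ranged from -0.92 to 0.63 in shHdac1 and from -0.89 to 0.69 in shHdac2. Simulated 2-fold changes were recovered for 62% of genes and 1.5-fold changes for 10%, so small changes could be missed. The simulated libraries were independent, with the same spread for every gene and no replicate set apart. These rates therefore need not hold for the real libraries.

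With the replicate number as a block, 4 members were called higher in shHdac1 (Ero1l, Itprip, Tbl2 and Tmem43; 1.12% of all genes) and 2 lower (Plekhh3 and Prokr1; 2.72%). In shHdac2, 3 were higher (Ero1l, Itprip and Tbl2; 2.81%) and 2 lower (Hps5 and Plekhh3; 3.08%). Ero1l, the oxidase that drives disulphide formation, had 118, 112 and 108 CPM in shHdac1 and 117, 118 and 83.8 CPM in shHdac2, against 82.3, 81.2 and 58.1 CPM in shLuc. Its log2 changes were 0.63 (SE 0.15, adjusted p = 0.0998 without the block and 0.0152 with it) in shHdac1 and 0.53 (SE 0.14, adjusted p = 0.121 and 0.0248) in shHdac2. Itprip had 18.9, 20.6 and 14.7 CPM in shHdac1 and 20.5, 22.3 and 17.8 CPM in shHdac2, against 14.7, 12.8 and 10.2 CPM in shLuc, each knockdown library above the shLuc library of the same number. Plekhh3 had 65.2, 69.2 and 59.2 CPM in shHdac1 and 76.6, 72.5 and 63.4 CPM in shHdac2, against 90.9, 89.8 and 77.1 CPM in shLuc. Prokr1, a prokineticin receptor, had 13.2, 13.7 and 13.6 CPM in shHdac1, against 20.1, 19.5 and 20.9 CPM in shLuc, and the groups did not overlap (log2 -0.56, SE 0.11, adjusted p = 0.0567 without the block).

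Replicate 3 stood apart in all 3 shRNA groups. On the first principal component of the 9 libraries, replicates 1, 2 and 3 lay at 3.1, 1.3 and -38.8 in shHdac1, at 25.7, 20.4 and -21.7 in shHdac2 and at 34.7, 32.7 and -57.4 in shLuc. Replicates 1 and 2 of a group were nearly alike. Over genes with at least 20 counts in a pair of libraries, the mean chi-square of their counts was 3.58 to 8.76, where counting error alone gives 1, against 44.9 to 74.9 for pairs with replicate 3. They differed by more than counting error and were kept as separate libraries, and the labels do not say what they share. Without shLuc replicate 3 alone, 10 members were called higher and 3 lower in shHdac1 (4.36% and 6.59% of all genes), and 3 higher and 9 lower in shHdac2 (4.26% and 4.52%). Without replicate 3 of every group, where the spread comes from replicates 1 and 2 alone, 26 members were called higher and 19 lower in shHdac1 (21.6% and 22.5% of all genes). In shHdac2 these were 25 and 33 (22.5% and 21.7%), and between the knockdowns 21 and 13 (16.1% and 19.6%). With replicates 1 and 2 summed to 1 library in each group, edgeR called 0 members higher and 0 lower in each of these comparisons. The number of members called thus differed with how these replicates were counted.

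Between the knockdowns, 1 member was called higher in shHdac1 than in shHdac2, Tmed5 (0.889% of all genes were), and none lower (1.17%). At an unadjusted p under 0.05, 14 members (12.3%) were higher and 3 (2.63%) lower, where 6.50% and 7.81% of all genes were. DESeq2 called 9 higher (7.89%) and 0 lower, where it called 2.57% and 3.67% of all genes. Tmed5, a cargo receptor between the endoplasmic reticulum and the Golgi, had 43.4, 44.8 and 41.4 CPM in shHdac1, against 26.4, 27.7 and 25.6 CPM in shHdac2, with no overlap (log2 0.72, SE 0.15, edgeR adjusted p = 0.0479). The shLuc libraries, at 30.5, 33.1 and 43.7 CPM, lay between and overlapped shHdac1. The call was lost without any 1 of the 6 libraries (adjusted p = 0.0865 to 0.194), with RLE scaling (0.0505), without the filter on low counts (0.0502) and with replicates 1 and 2 summed (0.865), and it stayed at 0.0271 with the replicate block. With that block 5 members were higher (Apcdd1, Hyal1, Pigm, Slc19a2 and Tmed5; 2.45% of all genes) and none lower (4.06%). Slc19a2 had 31.7, 28.4 and 25.6 CPM in shHdac1, against 22.8, 21.7 and 18.9 CPM in shHdac2. Gadd45b had the largest change of any member, at 10.7, 9.53 and 12.2 CPM in shHdac1, against 5.31, 6.16 and 5.41 CPM in shHdac2, but it was not called (log2 0.96, SE 0.26, edgeR adjusted p = 0.116).

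**Figure D5:**
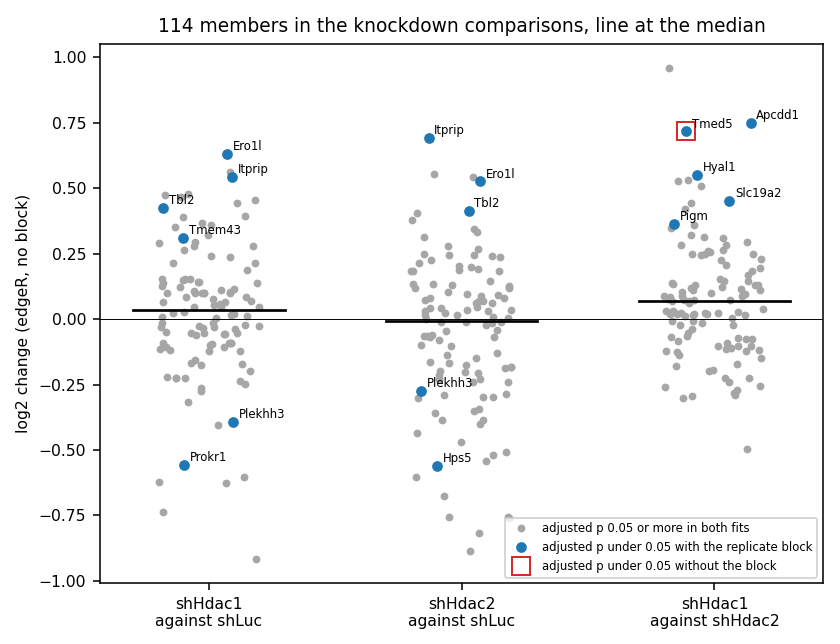
The log2 change of each of the 114 members is plotted for the 3 knockdown comparisons, from the fit without a block, with a line at the median. Blue points passed an adjusted p of 0.05 with the replicate block and the red square marks Tmed5, which passed without it. The medians are 0.04, -0.01 and 0.07, and the members spread on both sides of 0 in every comparison.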

How the data were processed

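RNA-seq of 21 SMB21 libraries was used. Per the labels' protocols, 500 ng of total RNA went into each TruSeq Stranded mRNA library, sequenced single-end at 75 bp in 2 runs, and the labels do not tie libraries to runs. Per the submitters' processing notes, the aligner was STAR 2.5.1b and the genome build mm9. The authors deposited whole-number counts per gene and library. Which strand was counted, which annotation was used and how multi-mapping reads were treated is not given in the sources used here. Paralogs (Zfp819, Zfp790, Zfp948), the clustered Pcdhac2 and overlapping or antisense genes are therefore uncertain.

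CPM are counts over column totals. Separate fits were made for the 9 shRNA libraries and for the 12 of JNJ and DMSO (edgeR 4.0.16, R 4.3.3): filterByExpr (minimum count 10, minimum total 15; 13612 and 14467 genes kept), TMM (factors 0.961 to 1.03 and 0.883 to 1.15), group as the only term, two-sided quasi-likelihood tests and Benjamini-Hochberg adjustment over all genes tested, called at 0.05. DESeq2 1.42.0 was an alternative. On simulated counts (shHdac1 against shLuc, 13532 genes) the fit recovered 10% of 1.5-fold, 62% of 2-fold and 100% of 3-fold changes, with 4.9% of calls false. The simulation used independent libraries with the same spread for every gene, unlike the real replicates. Same-numbered shRNA libraries correlated above 0.1 in every pair (residual r 0.25 to 0.802), so the numbers were taken to pair them. Replicates 1 and 2 correlated as well across numbers (r 0.232 to 0.591), so the numbers mostly set replicate 3 apart. At 2 h pairs 2 and 3 correlated (0.685 and 0.607) but pair 1 did not (0.015). The numbers were therefore not taken to pair all 2 h libraries. At 24 h each pair correlated (0.579 to 0.655) and the numbers were taken to pair the libraries.

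Members, the 30 pathway lists and the lists of markers were chosen with earlier results of these data known, and the role groups (95 members in 9) after the members were seen. Named by rule were Hdac1 and Hdac2, the 12 largest 2 h ratios, the 8 highest JNJ 2 h means, the 6 smallest and 6 largest ratios of JNJ 24 h to JNJ 2 h, members of a list, members called in a knockdown, neighbours of each threshold and families of 3 or more. Placeholder symbols were passed over. Members named beyond this were chosen after their values were seen. No set test was run.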

Additional observations from a re-analysis of the deposited data

Results flagged for a closer look

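Tmed5 was the 1 member of 114 called higher between the 2 knockdowns by a test of the difference itself. Of all tested genes 0.889% were called so. It was higher in shHdac1 than in shHdac2 by 0.72 on the log2 scale (SE 0.15, edgeR adjusted p = 0.0479), in 3 of 3 libraries. Against shLuc it had 0.28 in shHdac1 (adjusted p = 0.516) and -0.44 in shHdac2 (adjusted p = 0.201), and neither was called. The adjusted p for the difference was 1.06e-05 to 0.865 over the alternatives run. The edgeR call was lost without any 1 of the 6 libraries (adjusted p = 0.0865 to 0.194). It was also lost with RLE scaling, without the filter on low counts and with replicates 1 and 2 summed.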

How the results depend on the processing

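The rule took 114 genes, and 59 to 318 with 1 library left out, with the lowest count without JNJ 2 h replicate 1 and the highest without JNJ 2 h replicate 3. A 24 h window of 0.5 to 2 took 317. TMM, RLE and upper-quartile scaling took 131, 134 and 90 genes, of which 87, 90 and 76 are members, so a change of scaling exchanges part of the set. With the replicate block, as ratios within same-numbered pairs, the rule took 102 genes, 98 of them members. The numbers were not taken to pair all 2 h libraries, so at 2 h this count does not rest on a known pairing.

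In the knockdowns the replicate block, which uses the pairing, called 4 members higher and 2 lower in shHdac1 against shLuc, 3 and 2 in shHdac2 against shLuc, and 5 higher in shHdac1 against shHdac2, where the fit without it called 0 and 0, 0 and 0, and 1. DESeq2 called 4 and 3, 4 and 5, and 9. Upper-quartile scaling called 1 lower in shHdac1. RLE scaling and the fit without a filter called 0 higher in shHdac1 against shHdac2. With 1 library left out, shHdac1 had 0 to 10 higher and 0 to 3 lower, shHdac2 had 0 to 3 higher and 0 to 9 lower, and the direct comparison had 0 to 1 higher. With 1 library left out, the highest counts against shLuc came without shLuc replicate 3. Without replicate 3 of every group the counts were 26 and 19, 25 and 33, and 21 and 13. With replicates 1 and 2 summed, edgeR called 0 in each comparison, with 4 higher and 3 lower, 3 and 5, and 7 and 0 at an unadjusted p under 0.05. At 24 h the replicate block in the 24 h libraries called 2 members higher and 8 lower, where the fit without it called 0 and 1. These 3 alternatives and upper-quartile scaling of the direct comparison were added after seeing the data. The cause was not tested. No result reversed. With 3 libraries a group, changes under 2-fold were often missed, and counting error at the lowest count of any member in a library, 24, adds to the spread.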
